A study of Mus musculus with 4 samples.

Results

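The 10 genes described here encode subunits of the NMDA receptor (Grin1, Grin2a, Grin2b, Grin2c, Grin2d, Grin3a and Grin3b) and of the AMPA receptor (Gria1, Gria2 and Gria4). The AMPA receptor gene Gria3 was not among the 10. A differentially methylated region was counted for the 10 genes when it overlapped the body of any of them widened by 5 kb on both sides, in any cytosine context. This gave 49 regions out of 101350 in the authors' deposited table, which lists regions called between cKO and Ctrl somatosensory cortex of mice aged 2.5 months. The cKO group (2 libraries) had Nsd1 removed conditionally with the Nex driver (Nsd1Nex-cKO), and the Ctrl group (2 libraries) was labelled Nsd1fl/+, which is a floxed allele beside a wild-type allele. DNA methylation was read by whole-genome bisulfite sequencing, in which unmethylated cytosines are converted and methylated ones are not. Nex, also called Neurod6, drives recombination in excitatory neurons of the forebrain, whereas the DNA came from whole dissected tissue, which also holds interneurons, glia and vessels. The table gives 1 mean level per region and group, so no spread between libraries stands behind any value, no test over mice could be made, and the depth is unknown. It also lists called regions only, so a gene with no region has no level here, and neither the deletion of Nsd1 nor the makeup of the tissue can be read from it. In bulk tissue, a change in the share of a cell type and a change within its cells cannot be told apart.

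Glutamate receptors of the NMDA and AMPA type carry most fast excitatory transmission in the cortex. AMPA receptors open first and depolarise the postsynaptic membrane, and this releases the magnesium block of NMDA receptors, whose calcium influx sets off lasting changes in synaptic strength. NSD1 dimethylates histone H3 at lysine 36 (H3K36), a mark that is bound by the DNA methyltransferase DNMT3A. DNMT3A also writes the methylation outside CG sites that builds up in neurons after birth. Most of the non-CG regions of the table are of the CHH context, in which H is any base but G.

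The number of cytosines given for a region counts both DNA strands, so that a CG site that lies whole in a CG region usually adds a pair. This was checked on the regions of the table that lie inside the promoter windows of RefSeq (GRCm38.p6, the assembly of mm10): the number equalled the cytosines on both strands in 202 of 211 CG regions and in 42 of 42 CHH regions, and the first and last base of each was C or G. A window holds 250 bases before and 50 after a transcript start. Of the 10 genes, 6 have such a window (Grin1, Grin2c, Grin2d, Grin3b, Gria2 and Gria4), and 0 listed regions overlap any of them. The share of all windows that a listed region overlaps was not computed, so this 0 has no background. The only stretch of the 49 regions that falls in a window of another gene is the end of a CG region inside Grin2b, higher in cKO, which reaches 32 bases into the window of the long non-coding RNA Gm14329 and is shown here on the plus strand with its 3 CG sites in capitals. The windows of Grin1, with 33 CG sites, and of Gria2, with 26, are shown beside it as CG-dense starts at which no region was listed, also with CG in capitals and both read on the minus strand. The motif searched was CG on the printed strand, which reads the same on the other strand. Among all 32851 windows, 8.56% hold at least as many CG sites as that of Grin1 and 16.9% as many as that of Gria2, against a median of 7. The 3 stretches were chosen after the values were seen.
Grin2b region end, chr6:135732620-135732651: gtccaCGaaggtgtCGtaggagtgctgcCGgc
Grin1 promoter window, chr2:25319138-25319437: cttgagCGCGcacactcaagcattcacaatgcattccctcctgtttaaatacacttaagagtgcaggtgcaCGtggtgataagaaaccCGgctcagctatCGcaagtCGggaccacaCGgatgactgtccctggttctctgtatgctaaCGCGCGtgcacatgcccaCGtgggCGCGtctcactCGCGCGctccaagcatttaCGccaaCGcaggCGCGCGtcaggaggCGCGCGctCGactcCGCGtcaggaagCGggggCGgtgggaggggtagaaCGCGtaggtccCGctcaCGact
Gria2 promoter window, chr3:80802786-80803085: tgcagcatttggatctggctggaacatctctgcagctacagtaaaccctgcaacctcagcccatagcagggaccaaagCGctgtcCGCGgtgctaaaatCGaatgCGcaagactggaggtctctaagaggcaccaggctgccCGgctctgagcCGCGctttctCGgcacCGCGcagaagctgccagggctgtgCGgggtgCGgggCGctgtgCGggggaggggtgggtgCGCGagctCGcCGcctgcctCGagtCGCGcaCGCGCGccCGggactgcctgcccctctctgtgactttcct

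Of the regions listed at the receptor genes in the authors' deposited table, more were higher than lower in cKO, though not at every gene. Regions higher in cKO outnumbered those lower at Grin2a, Grin2b, Gria1 and Gria4. At Grin1, Grin2c and Grin3a those lower in cKO were more numerous. Grin2d held 1 of each direction, and Grin3b and Gria2 held 0 regions. Of the 32 CHH regions, 25 were higher in cKO (78.1%), where 36.1% of all CHH regions in widened protein-coding genes were. Of the 17 CG regions, 10 were higher in cKO (58.8%), against 12.8% of all CG regions in widened protein-coding genes. There were 0 CHG regions, which are rare in the table (0.509% of protein-coding genes hold a CHG gain in cKO and 0.789% a CHG loss). Gria1 alone held 15 of the 49 regions. Without it, a choice made after the values were seen, 13 of 19 CHH regions (68.4%) and 8 of 15 CG regions (53.3%) were higher in cKO. When only absolute differences at or above the median of the context were kept, the direction turned for CG, with 2 of 5 regions higher (40.0%, against 3.89% of all), while 13 of 16 CHH regions were higher (81.3%, against 43.4% of all). A minimum area statistic or number of cytosines left 8 and 6 CHH gains of the 25. Regions of 1 gene share their cells and reads and are not replicates, so these shares describe the listed regions and were not tested.

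The share of regions higher in cKO was larger in gene bodies than in their flanks, at the receptor genes as over all protein-coding genes. Inside the gene bodies 33 of 42 regions were higher in cKO (78.6%), against 29.2% of all regions in bodies of protein-coding genes. By context these were 10 of 15 in CG (66.7%, against 14.9%) and 23 of 27 in CHH (85.2%, against 41.1%). In the flanks of up to 5 kb, 2 of 7 were higher (28.6%), against 8.43% of all flank regions, and both of these lie beside Grin2c inside another gene, in Tmem104 and in Fdxr. The 5 other flank regions, beside Grin1, Grin2b, Grin3a and Gria1, were lower in cKO and lay from 1.65 to 3.65 kb outside the body. Just beyond the limit of 5 kb the table lists 2 more regions within 10 kb, both lower in cKO. The nearer is a CG region 5.15 kb from Grin2b at 71.2% in cKO and 88.1% in Ctrl, and the other a CHH region 7.09 kb from Grin2a at 0.502% in cKO and 3.68% in Ctrl.

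**Figure D1:**
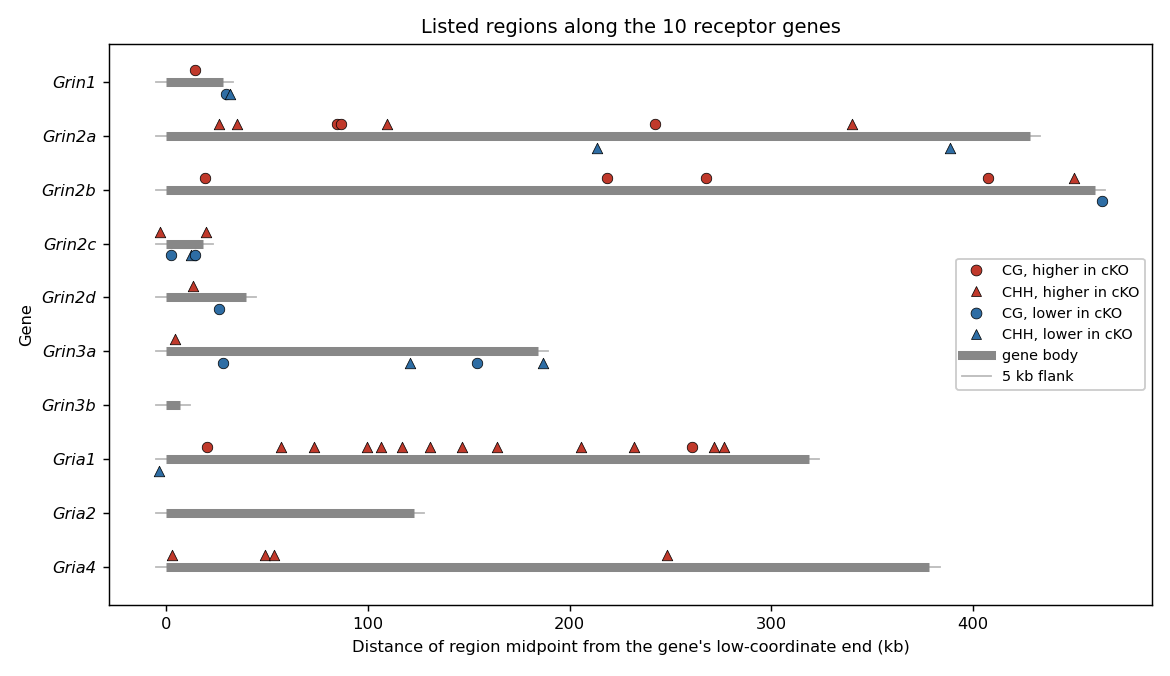
Positions of the 49 regions along the 10 genes, in kb from the end of the gene with the lower coordinate. Circles are CG and triangles CHH regions, with those higher in cKO drawn in red above the gene and those lower in cKO in blue below it. Inside the gene bodies of the AMPA receptor genes all 18 regions are higher in cKO, whereas the NMDA receptor genes hold both directions. Grin3b and Gria2 hold 0 regions.

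Long genes hold more regions, so counts for the long receptor genes were also set beside all protein-coding genes of 100 kb or more. Length was not matched within this class, which includes genes as long as Dmd (2390387 bases). The 4 receptor genes under 100 kb were not set beside genes of their own size in these counts. Any region was found at 8 of the 10 receptor genes, where 47.5% of all 21792 protein-coding genes hold at least 1. For the 6 receptor genes of 100 kb or more (Grin2a, Grin2b, Grin3a, Gria1, Gria2 and Gria4) the count was 5, against 91% of the 2427 genes of that size, a share near the background. A CHH region higher in cKO lay at 7 of the 10 (16.3% of all protein-coding genes) and at 5 of the 6 long ones (56.4% of long genes). A CG region higher in cKO lay at 4 of the 10 (8.2% of all) and at 3 of the 6 long ones (26.3% of long genes). Losses were found at 5 of the 10 in CG (26.5% of all protein-coding genes) and at 2 of the 6 long ones (59% of long genes). CHH losses lay at 5 of the 10 (22.4% of all) and at 3 of the 6 long ones (46.3% of long genes). Among long receptor genes with CG regions, 3 of 4 held more gains than losses, as did 22.5% of the long genes with a CG region. For CHH the count was 4 of 5, against 54.9% of the long genes with a CHH region.

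Grin1 encodes GluN1, the glycine-binding subunit that every NMDA receptor contains. It held 3 regions in the authors' deposited table (gene body on chromosome 2, 25291177 to 25319187). The CG region in mid-gene (25305262 to 25305422, 36 cytosines) was at 25.9% in cKO and 10.2% in Ctrl. The area statistic is the authors' score of a region and serves here for ranking alone. By this score it stood at rank 165 of the 2626 CG regions higher in cKO, the foremost rank among the 10 CG gains of the receptor genes. Both other regions lie outside the body, beyond the end at which the promoter window sits, and were lower in cKO. The CG region 1.65 kb out (25320841 to 25320902, 4 cytosines) was at 37.6% in cKO and 81.8% in Ctrl. The CHH region 3.33 kb out (25322519 to 25322607, 32 cytosines) was at 0.741% in cKO and 3.79% in Ctrl.

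Grin2a encodes GluN2A, a glutamate-binding subunit that becomes prominent in the cortex as synapses mature. All 3 of its CG regions were higher in cKO in the authors' deposited table (gene body on chromosome 16, 9567901 to 9996083), and all 9 of its regions lie inside the body. The CG region with the largest area statistic (9652469 to 9652735, 12 cytosines) was at 78.1% in cKO and 47.5% in Ctrl. A second CG region (5 cytosines), 1.89 kb from it, was at 72.3% in cKO and 46.0% in Ctrl. The third (6 cytosines) was at 80.3% in cKO and 51.9% in Ctrl. Among the genes of 100 kb or more, not matched further for length, 5.44% hold 3 or more CG gains and 20.3% hold 4 or more CHH gains. The CHH regions of Grin2a went both ways. Of the 4 that were higher in cKO, at 4.03% to 5.51% in cKO and 0.792% to 1.29% in Ctrl, the one with the largest area statistic (9677432 to 9677537, 47 cytosines) was at 5.51% in cKO and 1.29% in Ctrl. Of the 2 that were lower in cKO, the stronger lay near mid-gene (9781147 to 9781324, 70 cytosines), at 0.600% in cKO and 6.37% in Ctrl. The other (9956211 to 9956295, 35 cytosines) was at 0.897% in cKO and 4.15% in Ctrl. The ratio of cKO to Ctrl at the mid-gene region, 0.0943, was the smallest of the 7 CHH losses of the receptor genes.

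Grin2b encodes GluN2B, the subunit that dominates NMDA receptors early in life. It held the most CG gains of the 10 genes in the authors' deposited table, 4 spread over a gene body of 460.4 kb (chromosome 6, 135713221 to 136173615). The strongest by area statistic (135732473 to 135732651, 18 cytosines) was at 94.0% in cKO and 79.2% in Ctrl, and its last bases are the Grin2b sequence printed above. The other 3 (12, 6 and 16 cytosines) were at 83.5%, 67.4% and 71.2% in cKO, against 54.1%, 34.8% and 47.6% in Ctrl in the same order. Among the genes of 100 kb or more, not matched further for length, 3.09% hold 4 or more such regions, and the median is 0. A single CHH region (136163032 to 136163127, 32 cytosines) was higher in cKO, at 6.14% in cKO and 1.36% in Ctrl. The only loss, a CG region 3.55 kb outside the body (136177163 to 136177487, 20 cytosines), was at 57.7% in cKO and 86.5% in Ctrl.

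Grin2c and Grin2d encode GluN2C and GluN2D, which are less abundant in cortical excitatory neurons. GluN2C is best known from cerebellar granule cells and GluN2D from interneurons and the early brain. Of all CG regions in bodies of protein-coding genes, 14.9% were higher in cKO, so lower was the common direction. All 3 CG regions of this pair were also lower in cKO in the authors' deposited table, and all lie inside the bodies. Those of Grin2c (gene body on chromosome 11, 115249169 to 115267297) were at 33.5% in cKO and 75.2% in Ctrl (115251341 to 115251477, 6 cytosines) and at 57.7% in cKO and 85.4% in Ctrl (115263199 to 115263336, 11 cytosines). A CHH region 1.52 kb from the second (115261505 to 115261675, 52 cytosines) was also lower, at 1.55% in cKO and 6.31% in Ctrl. The 2 CHH regions higher in cKO that fall in its flanks were at 5.41% in cKO and 1.32% in Ctrl (115245950 to 115246000, inside Tmem104) and at 8.0% in cKO and 2.24% in Ctrl (115268747 to 115268910, inside Fdxr), so that they may be counted to either gene. Inside the Grin2c body, methylation was lower in cKO at 3 of 3 regions. Lower was also the common direction in bodies of all protein-coding genes, where 29.2% of regions of any context were higher in cKO. In Grin2d (gene body on chromosome 7, 45831883 to 45871194) the CG region (45857847 to 45857999, 13 cytosines) was at 18.9% in cKO and 38.6% in Ctrl. Its CHH region (45845154 to 45845260, 41 cytosines) was higher, at 7.71% in cKO and 2.49% in Ctrl.

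Grin3a and Grin3b encode the GluN3 subunits, which bind glycine and lower the calcium permeability of the receptor. In the authors' deposited table Grin3a (gene body on chromosome 4, 49661611 to 49846023) held 4 regions lower in cKO and 1 higher. Its CG regions were at 47.3% in cKO and 77.0% in Ctrl (49689568 to 49689673, 7 cytosines) and at 44.3% in cKO and 78.6% in Ctrl (49815640 to 49815714, 6 cytosines). The CHH losses were at 1.33% in cKO and 5.48% in Ctrl, 2.33 kb outside the body (49848353 to 49848559, 79 cytosines), and at 0.696% in cKO and 3.33% in Ctrl within it (49782152 to 49782216, 25 cytosines). The CHH gain (49665848 to 49665910, 30 cytosines) was at 6.31% in cKO and 2.03% in Ctrl. Of the 5 long receptor genes with regions, this was the only one in which losses outnumbered gains. Grin3b, with a body of 6.79 kb on chromosome 10 (79970397 to 79977190), held 0 regions, as did 57.9% of the protein-coding genes under 100 kb.

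**Figure D2:**
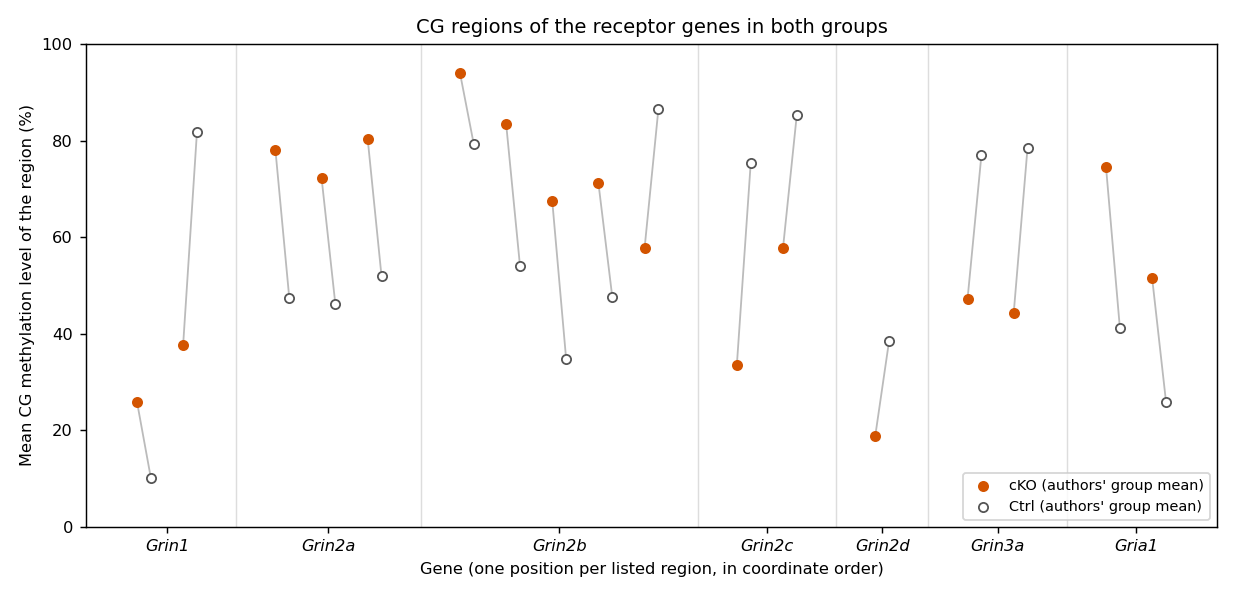
Mean CG methylation level (%) of each of the 17 CG regions in cKO (filled) and Ctrl (open), with a line joining the 2 values of a region and the genes in the order of the text. The 10 regions of Grin1, Grin2a, Grin2b and Gria1 inside the gene bodies are higher in cKO, and the regions of Grin2c, Grin2d and Grin3a are lower. Each point is the authors' mean of a group and carries no error bar because no values per library are given.

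Gria1 encodes GluA1, the AMPA receptor subunit that is inserted into synapses during long-term potentiation. It held the most regions of the 10 genes (gene body on chromosome 11, 57011571 to 57330244). In the authors' deposited table all 14 regions inside the body were higher in cKO, 12 in CHH and 2 in CG. The 12 CHH regions ranged from 3.21% to 10.1% in cKO (median 5.91%) and from 0.723% to 3.56% in Ctrl (median 1.46%). The lowest cKO level and the highest Ctrl level overlap between regions, but each region by itself was higher in cKO, by 2.69 to 6.07 times. The strongest by area statistic (57287856 to 57287971, 56 cytosines) was at 9.42% in cKO and 1.83% in Ctrl. The region with the highest cKO level (57216994 to 57217063, 26 cytosines) was at 10.1% in cKO and 3.56% in Ctrl.

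These CHH gains were strung along Gria1 and not gathered at a single place. They span 219.9 kb of the body of 318.7 kb, and the gaps between neighbours ran from 4.70 to 41.7 kb with a median of 16.6 kb. Together the 12 regions cover 1.17 kb and hold 460 cytosines, so the listed part of the gene is small. Among the 2427 protein-coding genes of 100 kb or more, not matched further for length, 1.77% hold as many CHH gains or more, and the median is 1. The 12 regions differ in strength, from rank 831 to rank 8325 of the 8596 CHH gains by area statistic. They hold 22 to 59 cytosines each (median 37.5, against 41 for all CHH gains). Both CG regions were also higher in cKO. The stronger (57272018 to 57272148, 12 cytosines) was at 51.5% in cKO and 25.9% in Ctrl, 10.9 kb from the nearest CHH gain. The other (57031633 to 57031856, 9 cytosines) was at 74.5% in cKO and 41.2% in Ctrl. The only region lower in cKO was a CHH region 3.65 kb outside the body (57007688 to 57007919, 72 cytosines), at 1.23% in cKO and 6.21% in Ctrl.

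Gria4 encodes GluA4, a subunit with fast kinetics that is prominent in parvalbumin interneurons. All 4 of its regions in the authors' deposited table were CHH gains inside the body (chromosome 9, 4417893 to 4796234), with no CG region beside them. The strongest by area statistic (4471334 to 4471475, 62 cytosines) was at 5.78% in cKO and 0.885% in Ctrl. The one at the lower end of the gene (4420733 to 4420914, 56 cytosines) was at 5.07% in cKO and 0.580% in Ctrl, a ratio of 8.75 that was the largest of the 25 CHH gains. The remaining 2 were at 8.53% in cKO and 1.46% in Ctrl (4466649 to 4466703, 17 cytosines) and at 4.22% in cKO and 1.37% in Ctrl (4665828 to 4665915, 33 cytosines). Of the genes of 100 kb or more, 20.3% hold 4 CHH gains or more. The nearest region to the Gria4 promoter window lay 130.3 kb from it.

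Gria2 encodes GluA2, whose edited form makes AMPA receptors impermeable to calcium. It held 0 regions in the authors' deposited table over a body of 122.8 kb (chromosome 3, 80681450 to 80804227) and its flanks. Of all genes of 100 kb or more, 91% hold a region. Gria2 lies near the short end of that class, and no share was computed for genes of its own length. Levels in Gria2 cannot be given, and an empty row does not show that they were equal in the 2 groups.

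**Figure D3:**
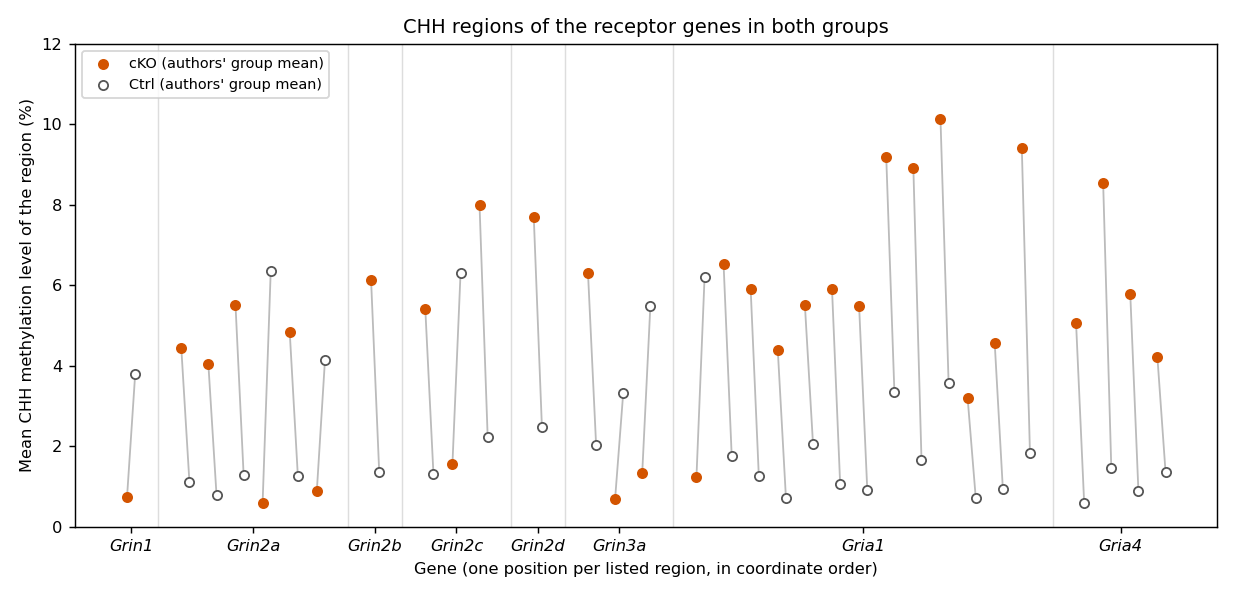
Mean CHH methylation level (%) of each of the 32 CHH regions in cKO (filled) and Ctrl (open), with a line joining the 2 values of a region. The 12 regions inside Gria1 and the 4 of Gria4 are all higher in cKO, from 3.21% to 10.1%, and the 7 regions that are lower in cKO lie at Grin1, Grin2a, Grin2c, Grin3a and in the Gria1 flank. Each point is the authors' mean of a group and has no error bar because no values per library are given.

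The levels of the receptor regions were set beside those of all listed regions of the same kind. The 25 CHH gains of the receptor genes had a median of 5.78% in cKO and 1.32% in Ctrl, where all 8596 CHH gains of the authors' deposited table had 6.90% in cKO and 1.69% in Ctrl. The median difference was 4.55 points (quartiles 3.62 and 5.22) for the receptor genes and 5.12 points (quartiles 4.20 and 6.30) for all. In CHH the gains of the receptor genes were thus somewhat smaller than those of the whole table, within its quartiles. For the 10 CG gains the medians were 73.4% in cKO and 46.8% in Ctrl, and for all 2626 CG gains 78.0% in cKO and 51.1% in Ctrl. Their median difference was 27.3 points (quartiles 24.0 and 30.3), against 24.2 points (quartiles 20.4 and 28.0) for all.

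The losses lay close to those of the whole table. The 7 CG losses of the receptor genes had a median of 44.3% in cKO and 78.6% in Ctrl, and all 44497 CG losses of the authors' deposited table had 42.4% in cKO and 76.0% in Ctrl. The 7 CHH losses had a median of 0.897% in cKO and 5.48% in Ctrl, and all 45012 CHH losses 1.01% in cKO and 5.52% in Ctrl.

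**Figure D4:**
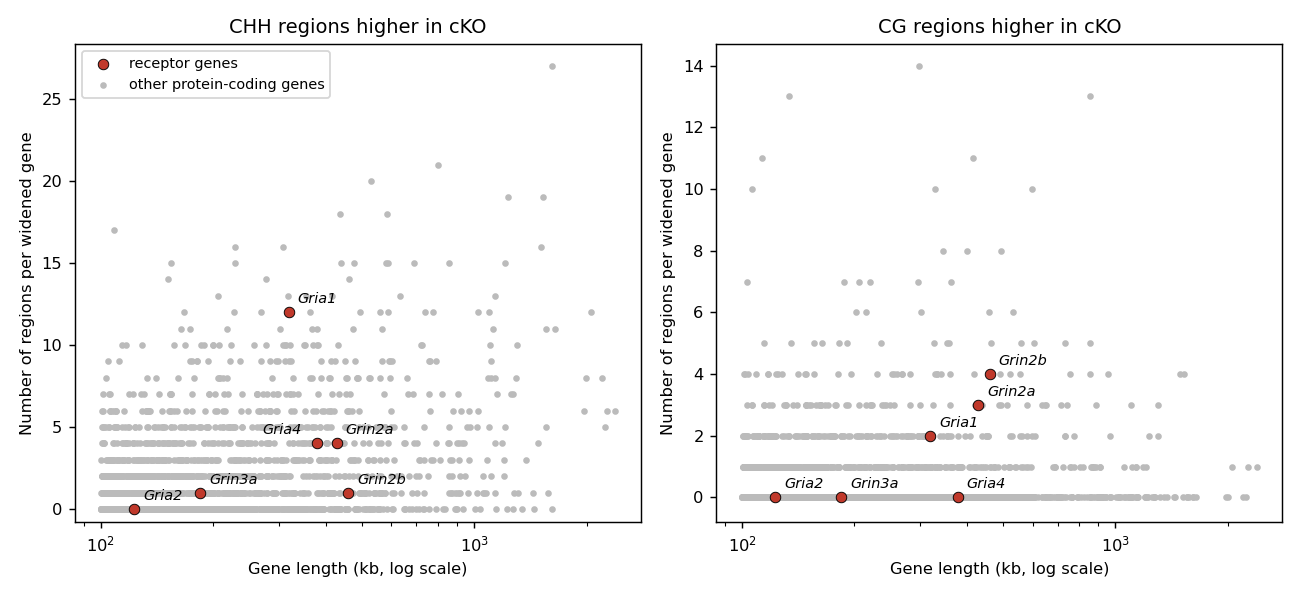
Number of regions higher in cKO per widened gene against gene length (kb, log scale) for protein-coding genes of 100 kb or more, with CHH regions on the left and CG regions on the right. Receptor genes are drawn in red and other genes in grey. Gria1 has 12 CHH regions, where the median gene has 1, and Grin2b has 4 CG regions, where the median gene has 0, while Gria2 sits at 0 in both plots.

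The partners of these receptors were described from 5 lists of 61 genes in all. Of their CHH regions in the authors' deposited table, 62 of 120 were higher in cKO (51.7%, against 36.1% of all CHH regions in widened protein-coding genes), and 34 of their 118 CG regions were (28.8%, against 12.8%). A CHH gain was held by 23 of the genes (37.7%, against 16.3% of all protein-coding genes) and a CHH loss by 17 (27.9%, against 22.4%). A CG gain was held by 18 (29.5%, against 8.2%) and a CG loss by 26 (42.6%, against 26.5%). Gene length was not taken into account in these shares. Both directions were found in each list except for CHH at the pentraxins, which held 0 CHH regions.

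Of the 16 auxiliary subunits and assembly factors of AMPA receptors, 5 held a CG gain (31.3%, against 8.2% of all protein-coding genes), 4 a CG loss (25%, against 26.5%), 7 a CHH gain (43.8%, against 16.3%) and 5 a CHH loss (31.3%, against 22.4%). The first CG gain by area statistic in the authors' deposited table lay at Cacng7, a regulatory subunit of the stargazin family, with 75.6% in cKO and 40.2% in Ctrl. It was followed by Cpt1c, which binds AMPA receptors in the endoplasmic reticulum (17.9% in cKO, 6.39% in Ctrl), and Cacng3 (76.0% in cKO, 52.6% in Ctrl). The CG losses were led by Gsg1l, an auxiliary subunit that slows recovery from desensitisation (21.3% in cKO, 68.1% in Ctrl), Shisa6 (27.4% in cKO, 63.5% in Ctrl) and Shisa9 (29.1% in cKO, 55.9% in Ctrl). Cacng2, the gene of stargazin, held 7 CHH gains and 0 regions of any other kind, and was named after its values were seen. Cacng2 is 128.3 kb long, and the share of genes with as many CHH gains was not computed. Among the 3 neuronal pentraxins, which cluster AMPA receptors, 1 held a region of any context (33.3%, against 47.5% of all protein-coding genes). This was Nptxr, with 2 CG gains and 1 CG loss. The stronger gain was at 55.7% in cKO and 29.7% in Ctrl, and the loss at 19.7% in cKO and 44.3% in Ctrl.

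Of the 14 scaffold and trafficking genes, 7 held a CG gain (50%, against 8.2% of all protein-coding genes), 9 a CG loss (64.3%, against 26.5%), 7 a CHH gain (50%, against 16.3%) and 3 a CHH loss (21.4%, against 22.4%). The first CG gains in the authors' deposited table lay in the postsynaptic scaffolds Shank3 (29.1% in cKO, 11.1% in Ctrl) and Shank1 (31.2% in cKO, 12.8% in Ctrl), and in Nsf, whose product binds GluA2 (71.5% in cKO, 36.4% in Ctrl). The first CG losses lay in Gipc1 (21.1% in cKO, 37.4% in Ctrl), Grip1, which anchors GluA2 (47.6% in cKO, 80.6% in Ctrl), and Shank2 (59.0% in cKO, 85.2% in Ctrl). Grip1, singled out after its values were seen, held 23 CG losses and 3 CG gains beside 13 CHH gains and 1 CHH loss. It thus held 23 of the 84 CG losses and 13 of the 62 CHH gains of all partner genes. Grip1 is 634.0 kb long, and the share of genes of its length with as many regions was not computed. Of the 16 kinases, phosphatases and effectors of NMDA receptor signalling, 4 held a CG gain (25%, against 8.2% of all protein-coding genes), 7 a CG loss (43.8%, against 26.5%), 6 a CHH gain (37.5%, against 16.3%) and 4 a CHH loss (25%, against 22.4%). Gains were led by the phosphatase Ptpn5 (86.5% in cKO, 67.3% in Ctrl), the kinase Src (73.5% in cKO, 49.0% in Ctrl) and the calcineurin subunit Ppp3ca (76.9% in cKO, 53.5% in Ctrl). Losses were led by Camk2d (44.8% in cKO, 87.6% in Ctrl) and Camk2g (49.6% in cKO, 79.0% in Ctrl), both subunits of a calcium-dependent kinase, and Nos1 (66.7% in cKO, 86.3% in Ctrl).

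The 12 genes of glutamate supply, uptake and co-agonist synthesis comprised 1 with a CG gain (8.33%, against 8.2% of all protein-coding genes) and 5 with a CG loss (41.7%, against 26.5%). A CHH gain was held by 3 (25%, against 16.3%) and a CHH loss by 5 (41.7%, against 22.4%). In the authors' deposited table the gain lay at Slc6a9, a glycine transporter (82.9% in cKO, 61.2% in Ctrl). The losses were led by Slc1a3, the glutamate transporter of astrocytes (26.2% in cKO, 64.6% in Ctrl), and by the vesicular glutamate transporters Slc17a7 (36.3% in cKO, 71.8% in Ctrl) and Slc17a8 (70.9% in cKO, 88.9% in Ctrl). No RNA or protein level was analysed here, so these values say nothing about how strongly any of the genes was expressed.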

How the data were processed

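Whole-genome bisulfite libraries were made from CTAB-extracted, sheared cortex DNA (2 cKO, 2 Ctrl), per the labels' protocols. CASAVA, Bowtie2 and mm10 are named in the submitters' processing notes, without roles; for the region caller, its thresholds and the conversion rate, details were not given in the sources used here. Group means per region were deposited by the authors as a fraction from 0 to 1 and are printed as percent. The deposited difference equals cKO minus Ctrl within 1e-09 in 101350 regions. The area statistic is a score deposited by the authors.

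Regions were assigned in Python 3.11.15 with pandas 2.3.3 when at least 1 base overlapped a RefSeq gene body widened by 5 kb. Entries that start within 3 Mb of a chromosome's beginning (Y and mitochondrial DNA apart) belong to scaffolds and were dropped, leaving 21792 protein-coding genes. The assignment was tested on simulated regions. Counts of genes with a region are set, in the Results, beside all protein-coding genes or those of 100 kb or more. Some other counts, such as those of promoter windows, of nearest pairs and of regions within a single gene, have no such share. Named are all 10 members, their region of largest area statistic per context and direction (all regions of members with 5 or fewer), and, from each partner list, up to 3 genes per direction with the largest area statistic in CG. The members and lists were chosen with earlier results of these data known. Replicates are numbered in the labels, which do not say whether they are separate mice. Exons, strand of genes with no promoter window, and coverage were not analysed here.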

Additional observations from a re-analysis of the deposited data

How the results depend on the processing

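Among 125 values of 19 results under 7 alternatives, 92 stayed within 1.5 times (counts, each scored alone), the quartiles (medians) or the 95% exact binomial interval over regions (shares higher in cKO, added after the data were seen), and 32 moved. Regions of 1 gene are not replicates, so the binomial interval serves as a label alone. The alternatives also share regions with the main count, so a value that stayed is no test of stability. The share of CG regions higher in cKO passed to the other side of an even split once, at 40.0% (2 of 5) with absolute differences at or above the context's median, against 58.8%. That of CHH regions moved to 60.0% with the minimum number of cytosines, against 78.1%. Under this minimum the share over all CHH regions in widened protein-coding genes also fell, to 30.5% against 36.1%. Under widening by 10 kb and under assignment by midpoint, 0 moved. With no widening, CHH losses of the receptor genes were 4 (against 7) and partner genes with a CG loss 13 (against 26). Keeping regions at or above their context's median area statistic left 3 CG losses (median -27.7 points), 4 CHH losses and 8 CHH gains, with a CHH gain at 12 partner genes and at 2142 protein-coding genes (9.83%). Keeping absolute differences at or above the context's median left 3 CG losses (median -41.7 points), 2 CG gains (median 32.9 points), 3 CHH losses (median -4.99 points) and 13 CHH gains. It left partner genes at 14 for CG losses, 3 for CG gains and 14 for CHH gains, and protein-coding genes at 3590, 308 and, for CHH losses, 3062. With at least 10 cytosines in CG and 50 in CHH, 3 CG losses (median -27.7 points), 6 CG gains, 4 CHH losses and 6 CHH gains (median 5.33 points) remained in number, beside 11 partner genes with a CHH gain and 1844 and 3049 protein-coding genes with a CHH gain and loss. Each of these 3 filters removes regions by construction. Without Gria1, chosen after the data were seen, 13 CHH gains were counted against 25. No paired analysis was possible because the table holds group means and no values per library, so leaving out replicates was not run either. Unknown depth limits every level.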

Other observations

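In the authors' deposited table, CG and CHH regions of the same receptor gene did not always share a direction. For each of the 17 CG regions the nearest CHH region at the same gene was found, at distances from 1.52 to 430.4 kb, and 10 of the 17 pairs had the same direction. The pairs are not separate, because all CG regions of Grin2b were paired with its single CHH region, and this share was not tested. It was not computed over other genes either, so it has no background. The 2 closest pairs, at Grin2c (1.52 kb) and beside Grin1 (1.62 kb), were both lower in cKO in both contexts. Lower was also the common direction in widened protein-coding genes, where 12.8% of CG and 36.1% of CHH regions were higher in cKO.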
